A study of Sus scrofa with 44 samples.

Results

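In longissimus dorsi, a back muscle, of fetal pigs, 503 genes had at least 1 m6A peak in each of the E33, E50, E60, E70 and E95 peak lists and none in the E40 list. They were 503 of the 6341 genes with a peak at any of the 6 stages, and their peaks were 3545 of the 44824 peaks of the 6 lists. The genes were selected on these lists alone, so the gap at E40 is how they were chosen and not a finding. The numbers in the stage names are days post coitus (33, 40, 50, 60, 70 and 95). Each stage had 3 input libraries and 3 immunoprecipitated samples of rRNA-depleted RNA, and 1 peak list, with no further treatment or genotype named in the labels. Nothing in the labels ties the 3 samples of a stage to separate fetuses, so p-values measure the spread between these samples, which may be technical. In bulk muscle, fewer cells of a type and less RNA per cell cannot be told apart.

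N6-methyladenosine (m6A) is a methyl mark on adenosines of mRNA. The METTL3 and METTL14 complex writes it within short sequences built around GGAC, most often in long internal exons and around the stop codon, FTO and ALKBH5 can remove it, and proteins of the YTH family bind it and steer mRNA splicing, translation and decay. In MeRIP-seq, fragments of RNA are pulled down with an antibody to m6A and sequenced beside the input RNA. A peak is a stretch of transcript with more pulled-down than input reads, and calling it depends on how many reads the transcript gives as well as on how far they are enriched.

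The sequences below are 25-base windows at the site that the peak shared in all 5 lists. Each is centred on the A of the GGACT or other GGAC nearest to the middle of that site, with the motif in capitals. Distances to the stop codon are those of this A. A window can reach past the shared site, as that of MCL1 does, whose site ends at chr4:98564651. All windows are RefSeq sequence of Sscrofa11.1, written 5′ to 3′ on the strand of the transcript. The first group holds those of the 8 members with the most enriched peaks whose shared site contained the motif. In a gene with several peaks per list, such as KBTBD2, the site shown need not be that of its most enriched peak.
KBTBD2: cttaaccggaGGACTgtagaaagat
RLF: ccaacttctaGGACaagaagcctcg
RASSF9: cctttgtggcGGACagctgaagcca
RNF157: cgctcagaagGGACcagaagcctcc
KBTBD2 encodes a substrate adaptor of a cullin ubiquitin ligase, and its window lies in the coding sequence at chr18:40634271-40634295 (plus strand), 680 bases before the stop codon. The window of RLF, a zinc finger protein, is coding sequence at chr6:95989275-95989299 (plus strand), 4287 bases before the stop codon. The window of RASSF9, a Ras association domain protein, is coding sequence at chr5:96338104-96338128 (plus strand), 926 bases before the stop codon. The window of RNF157, a RING ubiquitin ligase, is in the 3′ UTR at chr12:5303627-5303651 (plus strand), 182 bases after the stop codon.

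A second group was picked after the values were seen. It shows members whose strongest peak had a median p-value over the 5 lists far stronger than that of most members. TCAP was weaker in the E33 list, with a log10 p of -5.23 against a median of -11.2 for the members' strongest peaks.
DYNLL1: ttaagagcatGGACTatgccacaca
TCAP: tgcctgccctGGACTgggcccttcc
MCL1: atatgcccacGGACTtcattaactt
DDX6: tggggaagggGGACaaggaaggaga
The central A of all 4 windows is in a 3′ UTR, but this did not hold for every strong member. The window of MYL6, a myosin light chain with a median -log10 p of 45 over the 5 lists, is not printed. It lies in the 5′ UTR, 679 bases before the stop codon. That of DYNLL1, a light chain of the dynein motor, is at chr14:40458054-40458078 (plus strand). It includes the stop codon, and its central A is 9 bases after that codon. The window of TCAP, the titin cap protein of the sarcomere's Z-disc, is at chr12:22652085-22652109 (minus strand), 39 bases after the stop codon. MCL1, a survival factor of the BCL2 family, has its window at chr4:98564636-98564660 (plus strand), 380 bases after the stop codon, and DDX6, an RNA helicase of mRNA decay, at chr9:46029694-46029718 (minus strand), 295 bases after it.

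E40 had the shortest of the 6 lists, with 4928 peaks in 3047 genes, against 7058 to 8685 peaks in 4151 to 4767 genes at the other stages. Of the 2968 genes with a peak in the other 5 lists, 503 (16.9%) had none at E40. The same count was 59 for E33, 26 for E50, 90 for E60, 34 for E70 and 82 for E95, or 1.04% to 3.52% of the genes present in the remaining lists. Whether the E40 list is short because of the tissue, the immunoprecipitation, the reads or the calling was not tested, since there is 1 list per stage. The comparison group throughout is the 2465 genes with a peak in all 6 lists. Differences in peaks between these groups are descriptions without a test, because the same lists chose the groups and a site recurs from list to list.

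Member peaks had a fold close to that of genes with a peak in all 6 lists and weaker p-values. Their median fold enrichment, as the authors' peak caller gave it, was 3.63, 5.14, 4.19, 4.48 and 4.55 in the E33, E50, E60, E70 and E95 lists. The genes with a peak in all 6 lists had 3.56, 4.96, 4.03, 4.21 and 4.45 in the same order. The most enriched peak of each gene was lower in members in all 5 lists, with medians of 3.95, 5.44, 4.54, 4.93 and 4.97 against 4.42, 6.29, 5.06, 5.42 and 5.65. The members' median log10 p, however, was -10, -11.6, -11.4, -11.7 and -9.67, against -20.4, -24, -23.5, -21.4 and -18.5. Members also had fewer peaks. They averaged 1.27 to 1.52 peaks per gene and list, against 2.05 to 2.30, and 64.2% to 77.1% of them had 1 peak, against 41.5% to 48.6%. A median member peak covered 151 to 181 exonic bases, against 211 to 241.

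The share of genes without a peak at E40 moved with the p-value more than with the fold. Among genes whose strongest peak had a median -log10 p over the 5 lists of 5 to 10, 144 of 221 (65.2%) had no E40 peak. That share was 36.1% (286 of 793) from 10 to 20, 7.39% (61 of 825) from 20 to 40, 1.36% (8 of 587) from 40 to 80 and 0.556% (3 of 540) from 80 up. Across bins of the gene's highest fold enrichment it ran between 12.1% and 21.2%, with 19.2% below 3-fold and 17.1% at 10-fold and above. Across bins of expression at E40 it was 29.3% between 2 and 5 scaled TPM and 7.48% between 20 and 50.

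**Figure D1:**
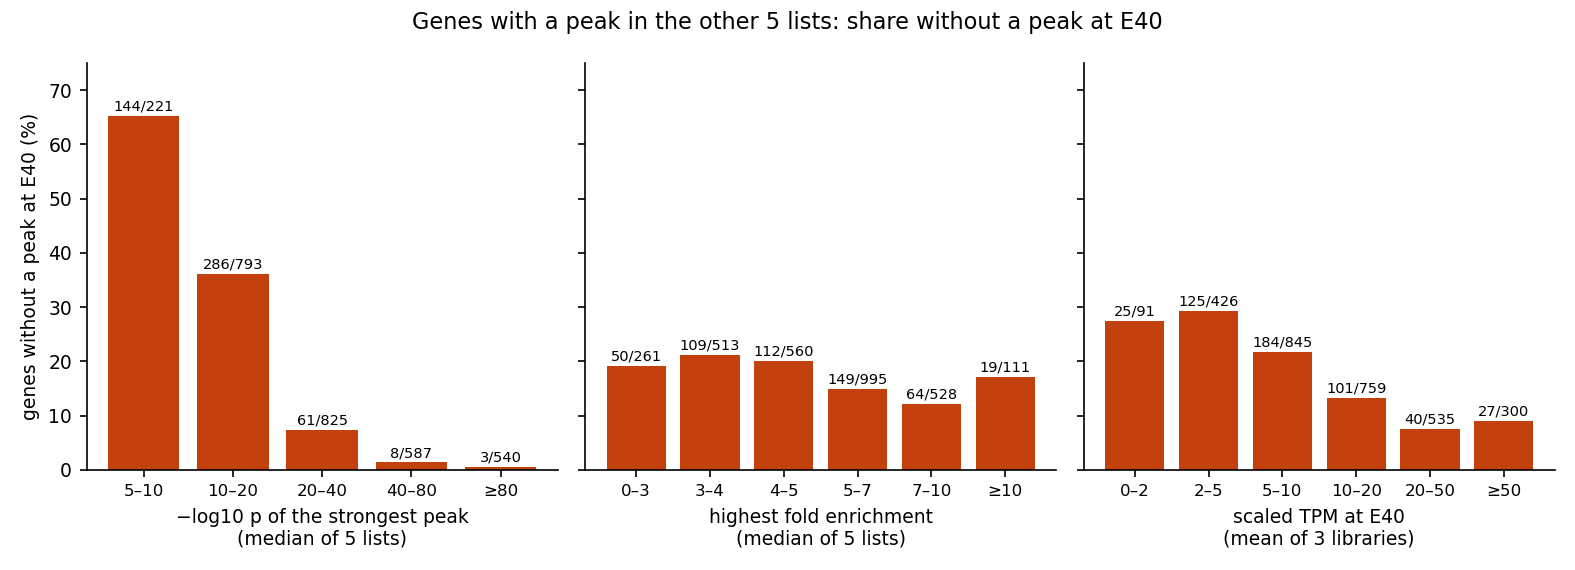
Share of genes without a peak at E40 (y axis, percent) among the genes with a peak in the other 5 lists. The bins are of the -log10 p of the strongest peak, of the gene's highest fold enrichment and of scaled TPM at E40. Numbers over the bars are genes without an E40 peak over genes in the bin. The share falls from 65.2% to 0.556% along the p-value, stays between 12.1% and 21.2% along the fold, and lies between 7.48% and 29.3% along expression; the bin below a -log10 p of 5, with 2 genes, is not drawn.

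Most members had their peak at the same place in all 5 lists. In 410 of the 503 genes (81.5%) at least 1 base was covered by a peak in all 5 lists, and in 374 (74.4%) at least 50 bases were. Among genes with a peak in all 6 lists, 2359 of 2465 (95.7%) had a site common to the same 5 lists. The members' genes were also marked in PK15, a pig kidney cell line with 1 peak list made from polyA RNA and 1 from RNA depleted of rRNA. There, 432 members (85.9%) had a peak in the polyA list and 395 (78.5%) in the rRNA-depleted list, against 85.6% and 82.0% of the genes with a peak in all 6 lists. Where a member had both a common muscle site and a PK15 peak, they overlapped in 335 of 354 genes (94.6%) of the polyA list and in 319 of 328 (97.3%) of the other. At E40, 0 members had an overlapping peak listed under another gene on the same strand. On the opposite strand 7 did: BAG4, BAIAP3, DDA1, GNPTG, LZTR1, TIAM2 and TTI2, and without them 496 members remain. Members also shared sites with each other: of 408 with a common site on an assembled chromosome, 37 (9.07%) had one that overlapped the site of another member, 31 of them on the opposite strand. Such peaks were listed under both genes, and 29 of the 408 sites lay outside RefSeq coding transcripts, so the gene a shared peak belongs to is uncertain.

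Member peaks lay closer to the stop codon. The midpoint of 969 of 3534 member peaks on assembled chromosomes (27.4%) was within 200 bases of the stop codon along the RefSeq transcript, against 16.5% of the peaks of genes with a peak in all 6 lists and 20.03% of all peaks in the 5 lists. In each list the share was 26.2% to 28.8% for members and 15.7% to 17.6% for the other group. A further 13.2% of member peaks were deeper in the 3′ UTR, against 8.72%, and 47.3% were elsewhere in the coding sequence, against 66.5%. The gap between the groups was also there within bins of the p-value from 5 up. Among peaks with a -log10 p of 10 to 20, 30.8% of 1499 member peaks were near the stop codon, against 16.2% of 7075, but below 5 it was 18.5% of 195 against 16.1% of 623. It was smaller among genes with 1 peak in the list, at 36.5% against 28.9%. The members' longest RefSeq transcripts had a median of 4295 bases with 1803 coding bases, against 4811 and 2139 (417 and 2047 genes matched by symbol).

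**Figure D2:**
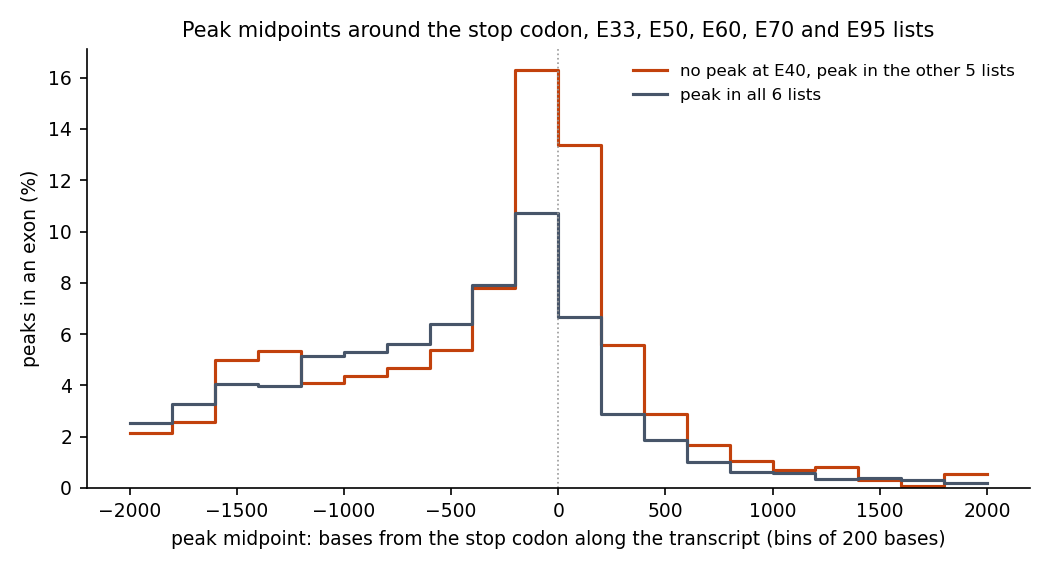
Share of exonic peaks (y axis, percent) by the distance of the peak midpoint from the stop codon (x axis, bases along the transcript, bins of 200), for genes with no peak at E40 but one in the other 5 lists and for genes with a peak in all 6 lists. In the bins just before and just after the stop codon the first group has 16.3% and 13.4% of its peaks, and the second 10.7% and 6.67%.

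The motif of the printed windows was frequent in member peaks. GGACT occurred in the central 100 exonic bases of 23.0% of 2886 member peaks at least that long, against 16.1% of 23849 peaks of genes with a peak in all 6 lists and 17.5% of all peaks in the 5 lists. Its reverse complement occurred in 8.87%, 8.54% and 8.41%, and GGACT itself in 7.49% of 100-base windows of the members' transcripts outside peaks. GGAC followed by any base, which includes GGACT, occurred in 56.2% of member peaks, 52.2% of peaks of the other group and 27.8% of the members' windows outside peaks. Among peaks with a -log10 p of 10 to 20, GGACT was in 23.3% of 1424 member peaks and 17.5% of 6617 peaks of the other group, while from 40 up it was in 9.72% of 72 and 13.7% of 7503. Of the 408 common sites of members on assembled chromosomes (median 120 bases), 228 (55.9%) held GGAC, 100 (24.5%) held GGACT and 143 (35.0%) were near the stop codon.

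A few members had peaks with p-values far stronger than the members' median in every list that held them. The peak of DYNLL1, 1 in each list, had a fold of 6.21, 8.88, 8.15, 7.49 and 7.39 and a log10 p of -76.4, -117, -85.7, -112 and -69.6 at E33, E50, E60, E70 and E95. Its expression at E40 was 69.1, 64.2 and 69.6 scaled TPM in the 3 libraries, against 48.6, 47.9 and 40.9 at E33, a log2 change of 0.55 ± 0.19 (SE, adjusted p = 0.0499, limma) that changed sign with values as deposited. MCL1 had 3 to 5 peaks per list with a strongest log10 p from -35.8 to -78.1, and 15.3, 14.9 and 13.5 scaled TPM at E40 against 12.4, 12.7 and 12.5 at E33. DDX6 had 2 peaks in each of the 5 lists, with a strongest log10 p from -20.9 to -53.1 and a highest fold from 3.75 to 6.88, and 26.2, 19.3 and 24.3 scaled TPM at E40. In none of these 3 genes did the E40 libraries lie below all E33 libraries. A total of 11 members had a median -log10 p of 40 or more, the strongest being ENSSSCG00000004489, which has no symbol (275), and RPS24, a small-subunit ribosomal protein (117). Of the 11, only ENSSSCG00000007520, also without a symbol (64), had all E40 libraries below all E33 libraries. It had 56.4, 57.7 and 35.2 scaled TPM at E40 against 63.0, 61.6 and 66.7 at E33 (adjusted p = 0.292, limma). RPS24 and RPL29 belong to families with many near-identical copies, so their peaks and levels are uncertain.

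The most enriched members were not the strongest by p-value. KBTBD2 had 3 to 4 peaks per list with a highest fold of 10.3 to 37.0, and its expression was 6.35, 5.68 and 6.07 scaled TPM at E40, above the 4.19, 5.30 and 5.13 of E33 and the 5.18, 5.38 and 4.39 of E50 (adjusted p = 0.133, limma, E40 against the mean of both). RLF ranged from 8.21- to 26.3-fold at 5.55 to 6.01 scaled TPM at E40, and RASSF9 from 7.67- to 22.3-fold at 1.36 to 1.83 scaled TPM. RNF157, with 1 peak per list, ranged from 6.25- to 16.4-fold, and its expression was 8.43, 8.63 and 7.77 scaled TPM at E40. PDE7A, a phosphodiesterase of cyclic AMP, ranged from 11- to 22.9-fold. SLC25A27, a mitochondrial carrier, ranged from 7.34- to 28.3-fold. GJA4, the gap junction protein connexin 37 of blood vessels, ranged from 6.65- to 14.5-fold, and IL17RA, a receptor for interleukin 17, from 6.59- to 9.50-fold. At the other end, among members with a symbol, the lowest values of a gene's highest fold in a list were 1.51 for HNRNPH3, a splicing factor, and 1.66 for RPS24. Among named genes with a peak in all 6 lists, the lowest values of the highest fold at E40 were 1.61 for MORF4L1 (log10 p -20.4) and 1.73 for ARCN1 (log10 p -8.24).

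The members' median expression at E40 lay among the values of E33 and E50. TPM is given as deposited or scaled, that is divided by a median-ratio factor per library (0.305 to 2.01). The scaling sets the typical gene equal across libraries, so only differences relative to other genes can be read from it. The members' median scaled TPM was 7.06, 7 and 6.71 in the E33 libraries, 7.13, 6.93 and 7.29 at E40 and 7.19, 7.25 and 6.97 at E50. These values overlap. The genes with a peak in all 6 lists had medians of 11.6 to 12.5 in the 18 libraries. On the log2(TPM + 1) scale the members' median was lower by the mean differences of -0.73 ± 0.06 at E33, -0.67 ± 0.06 at E40 and -0.66 ± 0.08 at E50 (SD, n = 3 each). Without E40 replicate 2 the E40 difference was -0.64 ± 0.01 (n = 2), and with values as deposited it was -0.66 ± 0.01 (n = 3). As deposited, the members' median TPM was 9.83, 3.23 and 11.3 at E40, and 6.93, 9.05 and 2.13 at E50. The low values are those of E40 replicate 2 and E50 replicate 3, where the 2 most abundant genes held 82.8% and 86.8% of all TPM, against 37.8% to 67.8% in the other 16 libraries.

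Members were expressed in nearly all libraries. At E40, 97.4%, 93.4% and 98.4% of the 502 members with an expression value reached 1 TPM as deposited. The mean scaled TPM was lowest at E40 for 84 of 493 members (17.0%) and highest at E40 for 91 (18.5%). Over the 13334 genes tested, 15.6% were lowest and 16.2% highest at E40.

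**Figure D3:**
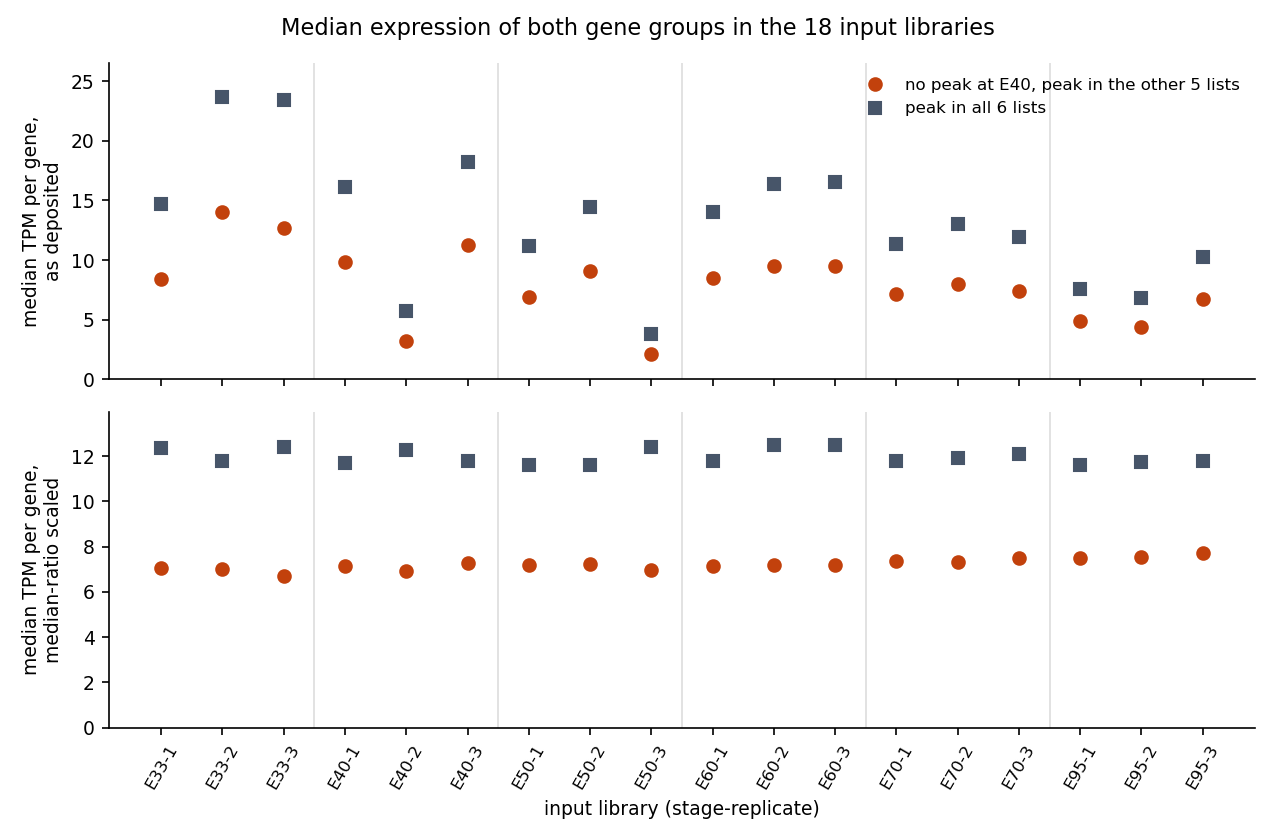
Median TPM per gene (y axis) in each of the 18 input libraries (x axis), as deposited above and after median-ratio scaling below, for genes with no peak at E40 but one in the other 5 lists (circles) and genes with a peak in all 6 lists (squares). The scaled medians of the first group lie between 6.71 and 7.73 in every library, below the 11.6 to 12.5 of the second; as deposited, E40-2 and E50-3 are low in both.

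Expression at E40 was compared with E33, with E50 and with the mean of both, by limma over the 13334 genes that averaged 1 TPM or more, with Benjamini-Hochberg adjustment over all of them and a call at an adjusted p under 0.05. The 3 comparisons share libraries. Of the 493 members tested, 123 (24.9%) were called between E33 and E40, 69 higher and 54 lower at E40. Of all genes tested 21% were called, and of the genes with a peak in all 6 lists 27.3%. The members' median log2 change was 0.06, and that of all genes 0.00. The split depended on the scaling. It was 80 higher and 45 lower with quantile normalization, 28 and 59 when TPM was rescaled without the 2 most abundant genes, and 1 and 13 with values as deposited, which moved the median of all genes to -0.59. The split of all genes moved the same way. It was 1350 higher and 1448 lower in the main setting and 1565 and 1345 with quantile normalization. With TPM rescaled it was 760 and 1808, and with values as deposited 28 and 621. Without E40 replicate 2, 150 members (30.4%) were called, against 24.5% of all genes. Leaving out any other library of E33 or E40 except E33 replicate 2 lowered the count by over 1.5 times, to 77 without E33 replicate 1, 68 without E33 replicate 3, 68 without E40 replicate 1 and 73 without E40 replicate 3, where 12.2% to 13.8% of all genes were called.

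Among members with a symbol and no overlap between libraries, CKM, SLN and NHERF2 had the largest called rises from E33 to E40. CKM, the muscle creatine kinase, had 5.14, 6.32 and 7.95 scaled TPM at E33, 108, 93.4 and 92.7 at E40 and 271, 205 and 283 at E50. The 3 stages do not overlap, and the mean reached 1057 at E95. Its log2 change from E33 to E40 was 3.74 ± 0.19 (SE, adjusted p = 5.28e-08, limma). By the rule that chose every member, CKM had a peak at E33 (4.32-fold) and at E50 (12.4-fold) and none at E40. SLN, sarcolipin, the regulator of the calcium pump of the sarcoplasmic reticulum, rose from 4.66, 3.27 and 4.95 to 22.5, 21.7 and 23.4 scaled TPM, a log2 change of 2.17 ± 0.15 (adjusted p = 9.75e-07, limma). Its strongest log10 p was -5.39 at E33 and -54.1 at E50.

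TCAP also rose, from 46.5, 26.8 and 49.2 to 87.8, 72.0 and 101 scaled TPM (log2 change 1.11 ± 0.25, adjusted p = 0.00627, limma). GJA4 rose from 4.36, 6.93 and 8.97 to 21.5, 26.1 and 16.2 scaled TPM (log2 change 1.54 ± 0.33, adjusted p = 0.00460, limma). NHERF2, a scaffold protein with PDZ domains, was estimated at 2.35e-05, 1.54e-05 and 1.59e-05 scaled TPM at E33, which is effectively 0, and at 4.51, 1.85 and 3.05 at E40 (adjusted p = 0.0473, limma), and leaving out any of 12 of the 18 libraries ended the call. TNNI1, the slow skeletal troponin I, had 65.7, 60.0 and 66.5 scaled TPM at E33 and 94.0, 83.9 and 78.5 at E40 and was not called (adjusted p = 0.186, limma). RPL29 had 351, 228 and 278 scaled TPM at E40 and 254, 275 and 253 at E33, which overlap.

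Of the members lower at E40 than at E33, ZNF598, ADAMTS1 and FBLIM1 had the largest called falls by the same rule. FBLIM1, the filamin-binding protein migfilin of cell adhesions, had 11.9, 11.2 and 12.2 scaled TPM at E33 and 4.49, 4.65 and 4.58 at E40, with no overlap (log2 change -1.19 ± 0.13, adjusted p = 2.78e-05, limma). ADAMTS1, a secreted matrix protease, went from 25.7, 26.6 and 30.4 to 6.77, 19.1 and 9.17 scaled TPM (-1.29 ± 0.29, adjusted p = 0.00603, limma). TIMP3, an inhibitor of such proteases, fell from 36.4, 35.4 and 34.2 to 23.9, 25.7 and 25.8 scaled TPM (-0.48 ± 0.08, adjusted p = 9.09e-04, limma), and was not called with quantile normalization. ZNF598, a ubiquitin ligase that senses collided ribosomes, had 12.6, 12.2 and 12.05 scaled TPM at E33 and 1.45e-06, 5.27 and 1.30e-06 at E40, so that 2 of the 3 libraries gave effectively 0 (adjusted p = 0.0151, limma). Its call ended without E40 replicate 1 or E40 replicate 3. With values as deposited, the calls of SLN, TCAP, GJA4, NHERF2 and TIMP3 between E33 and E40 were lost, and with only the stages compared in the fit those of ADAMTS1, TCAP and ZNF598.

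**Figure D4:**
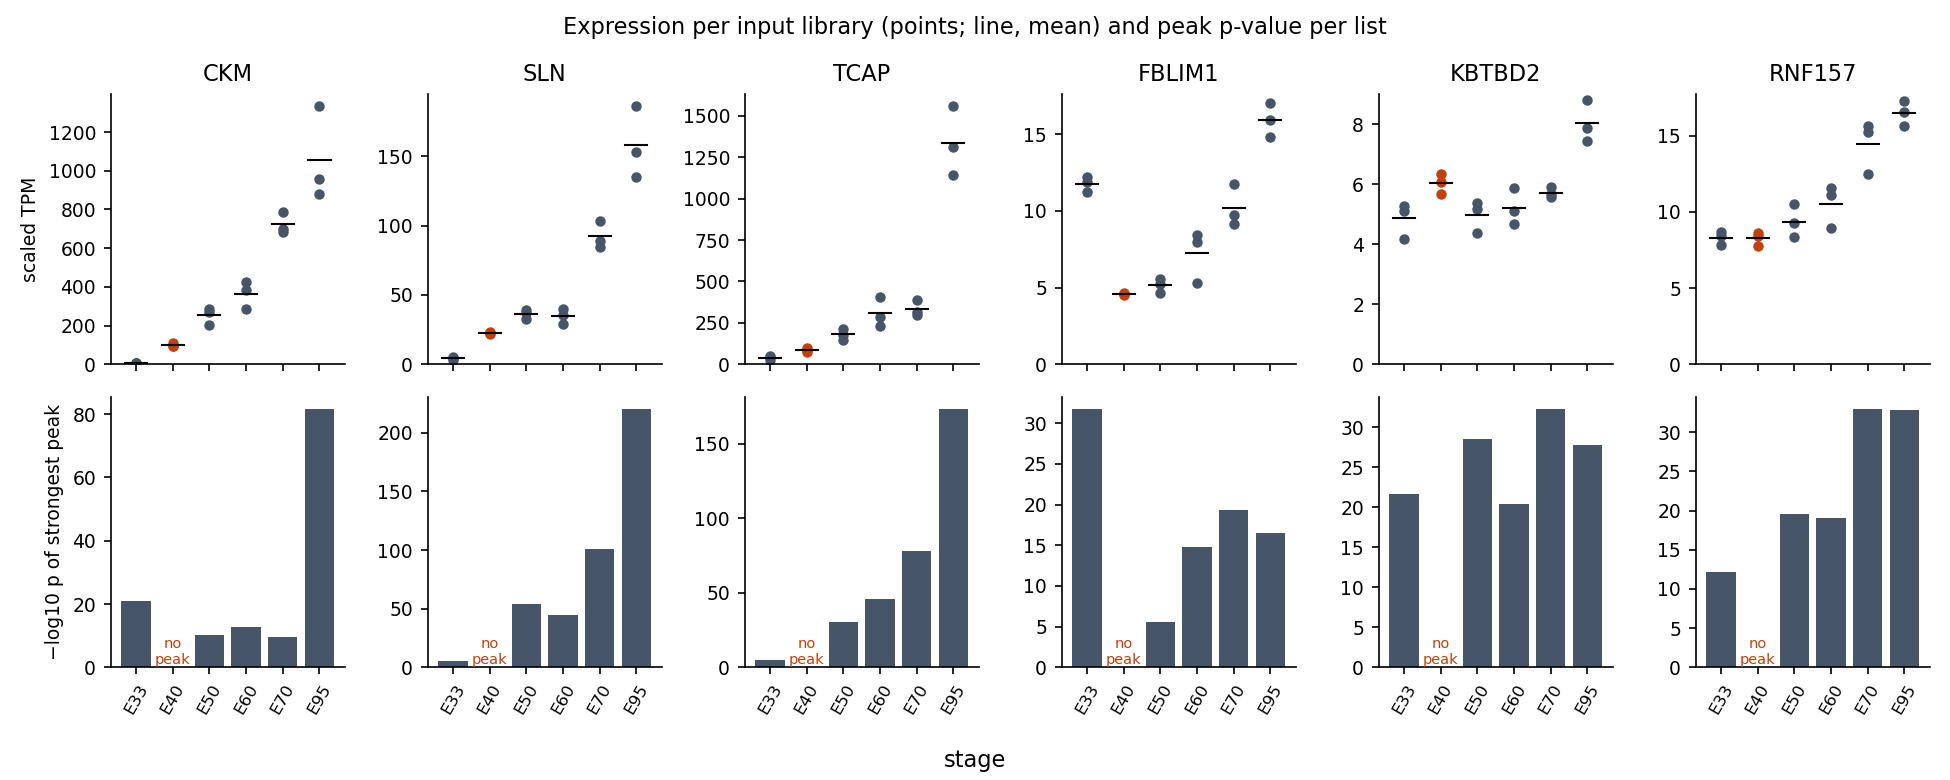
Scaled TPM in the 3 input libraries of each stage (upper row; points, libraries; lines, means) and the -log10 p of the gene's strongest peak in each list (lower row) for CKM, SLN, TCAP, FBLIM1, KBTBD2 and RNF157; the E40 libraries are orange, and the lower row has no bar at E40 because the genes were chosen for having no peak there. CKM, SLN and TCAP are higher at E40 than at E33, FBLIM1 is lower, and the E40 libraries of RNF157 (7.77 to 8.63) lie among those of E33.

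From E40 to E50, 6 of the 493 members were called (1.22%), 4 higher and 2 lower at E50, where 1.54% of all genes were. They were CKM, MYH14, SLN, PDZRN4, TIMP3 and a gene without a symbol. CKM rose again (log2 change 1.35 ± 0.19, adjusted p = 0.00397, limma). MYH14, a nonmuscle myosin heavy chain, had 2.32, 2.68 and 2.58 scaled TPM at E40 and 5.05, 3.57 and 6.06 at E50 (0.72 ± 0.13, adjusted p = 0.0182, limma). It changed sign, to -0.02, with values as deposited and E40 replicate 2 left out, as SLN did, to -0.34. TIMP3 went on falling (-0.38 ± 0.08, adjusted p = 0.0356, limma). Without E40 replicate 2, 2 members (0.406%) were called, against 0.757% of all genes. SLN went from 22.5, 21.7 and 23.4 to 39.1, 37.1 and 33.0 scaled TPM (0.67 ± 0.15, adjusted p = 0.0456, limma), a call that ended without any of 13 of the 18 libraries. MYH14 lost its call without E40 replicate 1, E40 replicate 3, E50 replicate 1 or E50 replicate 3, and TIMP3 without any of 6 libraries. With values as deposited, or with only the stages compared in the fit, 0 members were called by limma. At an unadjusted limma p under 0.05 there were 3 and 41 members, against 367 and 1312 of all genes. The count of members called was 1 without E40 replicate 1 or E40 replicate 3 and 2 without E50 replicate 1 or E50 replicate 3. It was 15 without E50 replicate 2 and 3 without E70 replicate 3. Of all genes, 2.73% were called without E50 replicate 2 and 0.405% to 0.892% without any of the others named.

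At E40 against the mean of E33 and E50, 17 members were called (3.45%), 9 higher and 8 lower at E40, where 2.36% of all genes and 3.29% of genes with a peak in all 6 lists were. In 5 of the 17 the E40 libraries lay outside the range of both other stages: FBLIM1, TIAM2, SVEP1 and ADAMTS8 below it and HIPK3 above it. This was not counted over all genes, so it is not shown to be particular to members. With values as deposited, limma called 0 members in this comparison (9 at an unadjusted p under 0.05, against 485 of all genes). FBLIM1, whose values stand above, differed by -0.67 ± 0.11 (adjusted p = 0.00777, limma), and not once E40 replicate 1 was left out. ADAMTS8, another secreted protease, had 3.3, 5.6 and 5.8 scaled TPM at E33, 1.99, 1.82 and 1.58 at E40 and 4.28, 3.13 and 3.35 at E50 (-0.88 ± 0.15, adjusted p = 0.00687, limma; not called without E40 replicate 3). TIAM2, an activator of the GTPase Rac, had 5.22, 4.79 and 4.92, then 2.22, 2.74 and 2.35, then 3.37, 3.17 and 3.71 scaled TPM (-0.58 ± 0.09, adjusted p = 0.00381, limma). SVEP1, an extracellular adhesion protein named after its values were seen, had 3.48 to 4.18 scaled TPM at E40 against 4.29 to 8.30 in the libraries of E33 and E50 (adjusted p = 0.00375, limma). HIPK3, a protein kinase, had 17.8, 15.2 and 16.7 scaled TPM at E40 against 10.2 to 14.5 at E33 and E50 (0.42 ± 0.09, adjusted p = 0.0240, limma), and its call ended without E33 replicate 3, E40 replicate 1 or E40 replicate 3.

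Most members changed by less than 2-fold on the log2(TPM + 1) scale: 475 of 493 from E33 to E40, 488 from E40 to E50 and 489 at E40 against the mean of both. No such count was made for all genes, so small changes are not shown to set members apart. The comparison of E40 with the mean of E33 and E50 was sensitive to single libraries. It called 31 members (6.29%) without E40 replicate 2, where 4.30% of all genes were called, and 42 (8.52%) without E50 replicate 2, where 5.32% were. It called 5 (1.01%) without E40 replicate 1 and 6 (1.22%) without E40 replicate 3, where 0.585% and 0.66% of all genes were called. It called 8 without E33 replicate 3, 10 without E33 replicate 1 or E50 replicate 1, and 11 without E70 replicate 1, with 1.27% to 1.95% of all genes called.

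By classes of function, ubiquitin ligases and zinc finger proteins took larger shares of the members than of the genes with a peak in all 6 lists. The chromatin and splicing classes took smaller ones. All of these classes were incomplete. Genes were classed by symbol or by words of the RefSeq description (443 members and 2206 other genes with a symbol), with no test. This left RLF out of the zinc finger class and the adaptor KBTBD2 out of the ubiquitin ligases, and counted ZNF598 only as a zinc finger gene. Whether the larger shares hold for all ubiquitin ligases and zinc finger genes was not tested. Ubiquitin ligases made up 20 members (4.51%), against 1.86% of genes with a peak in all 6 lists and 2.11% of all genes tested. They included the scaffolds CUL1, CUL3 and CUL7, the F-box proteins FBXO21, FBXO30, FBXO31, FBXO34 and FBXO42, and TRIM32, TRIM41, TRIM45 and TRIM55. From E33 to E40, 2 of the 20 rose (TRIM55 and UBR2, whose changes turned negative with values as deposited), 2 fell (FBXO31 and TRIM32) and 16 were not called. That is close to the 21% called among all genes, against which the counts of the other classes below can also be read. TRIM55, a ligase of the sarcomere, had 41.8, 34.2 and 40.4 scaled TPM at E40 against 26.4, 26.2 and 24.4 at E33. TRIM32 had 5.95, 6.65 and 4.34 against 8.17, 7.27 and 8.33.

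C2H2 zinc finger genes were 27 members (6.09%), against 3.72% and 2.66%, with 2 that rose (DZIP1L and ZNF518A, the latter turning negative with values as deposited), 2 that fell (ZNF174 and ZNF598) and 23 that were not called from E33 to E40. The word kinase occurred for 30 members (6.77%), against 4.40% and 4.81%. These include kinase inhibitors and anchors such as CDKN1A and AKAP6 beside the kinases GSK3B, LATS1 and MAP2K4. Of the 30, 5 rose, 4 fell and 21 were not called, and of the 5 only CKM kept its sign with values as deposited. Histone modifiers and chromatin remodellers were 6 members (1.35%), against 68 genes (3.08%) and 1.26%. Splicing factors were 1 member, HNRNPH3, against 33 genes (1.5%) and 0.679%. The chromatin and splicing classes were incomplete. The members AQR, CWC15, MBNL1 and MBNL2, which act in splicing, and the chromatin genes DOT1L and MYSM1 were not counted. The Mediator genes MED7 and MED9 were counted as chromatin genes. Whether the smaller shares hold for all chromatin and splicing genes was not tested. Collagens, and cadherins with protocadherins, were 0 members against 10 genes each, and homeobox genes 2 against 32.

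A set of members belongs to the TOR pathway, in which the MTOR kinase couples nutrients to growth. A list of 51 genes of the TOR complexes, their regulators and related kinases was written after the members' names had been seen, so its count supports nothing. Of 47 genes matched, 12 were members: MTOR, its partner RPTOR, the nutrient-sensing RRAGD, NPRL3 and WDR24, the targets RPS6KB1, ULK1 and ATG14, the chaperones TELO2 and TTI2, and the related kinases SMG1 and PRKDC. Of the other matched genes, 4 had a peak in all 6 lists, 18 had another pattern and 13 had no peak. MTOR had 1 peak per list, 1.72- to 3.88-fold. The common sites of ATG14 and WDR24 lay outside RefSeq coding transcripts and overlapped those of the members FBXO34 and STUB1 on the opposite strand, and that of TELO2 overlapped the site of IFT140, so which gene these peaks belong to is uncertain. From E33 to E40, RRAGD rose, MTOR, ULK1 and TELO2 fell, and 8 were not called, with 21% called among all genes. ULK1, a kinase that starts autophagy, went from 16.1, 12.9 and 14.5 to 7.40, 9.96 and 7.36 scaled TPM (log2 change -0.75 ± 0.12, adjusted p = 6.72e-04, limma), and MTOR from 6.56, 6.30 and 7.37 to 5.24, 5.47 and 5.35 (-0.28 ± 0.08, adjusted p = 0.0274, limma).

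Of 21 matched genes of the m6A machinery (enzymes that add or remove it and proteins that bind it), 0 were members, 12 had a peak in all 6 lists, 5 another pattern and 4 no peak. Of 33 matched muscle genes 2 were members, CKM and TNNI1, and 15 had a peak in all 6 lists. The markers of the labelled tissue were present. The summed scaled TPM of 14 matched skeletal muscle markers was 3663 to 4290 at E33, 6494 to 7354 at E40 and 9469 to 14003 at E50. Other cell types changed over the same stages. The sum of 5 neuronal markers was 103 to 134 at E33, 19.8 to 25.8 at E40 and 11.9 to 16.8 at E50, and 4 cartilage markers summed to 112 to 158, 64.7 to 111 and 24.0 to 51.8. The sum of 4 erythroid markers was 225 to 432 at E33, 624 to 949 at E40 and 349 to 916 at E50. These markers did not move together. The mean scaled TPM at E33, E40 and E50 was 231, 825 and 604 for HBB, but 129, 2.98 and 1.67 for HBZ. It was 1.26, 2.02 and 2.06 for ALAS2 and 0.824, 0.923 and 0.688 for EPB42. The sum of 5 endothelial markers was 17.2 to 22.0, 31.9 to 38.2 and 36.2 to 42.2. For 5 macrophage markers it was 40.2 to 52.4, 36.5 to 59.1 and 39.8 to 49.8, for 3 tendon markers 25.5 to 54.5, 49.0 to 79.2 and 4.87 to 30.2, and for 4 adipocyte markers 0 to 0.206, 0.126 to 1.41 and 1.15 to 3.45, with LEP at 0 in every E40 library. Their part in the members' changes was not tested.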

How the data were processed

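The deposited expression files give TPM per Ensembl gene, computed by the authors, for 18 muscle input libraries; each sums to 1000000 TPM, so the depth is unknown. Each peak has a fold enrichment ratio and a log10 p-value, per the file headers. The submitters' processing notes name Trimmomatic, HISAT2 and Sscrofa11.1; the peak caller, its use of the input libraries, and whether samples were pooled, are not given in the sources used here. The members and gene lists were chosen with earlier results of these data known. TPM was divided by median-ratio factors and log2(TPM + 1) tested with limma 3.58.1 in R 4.3.3 (mean per stage, 12 residual degrees of freedom, two-sided, genes averaging 1 TPM or more), a method tested on simulated data. Replicate numbers did not pair libraries (median correlation 0.02 over 45 same-number pairs). Peaks were placed on 19560 RefSeq coding genes with bedtools 2.31.1 and pysam 0.24.0; 86.7% to 90.6% of peak block junctions fell at RefSeq introns. Named genes were, among members with a symbol, the 8 with the highest lowest-of-5 fold, up to 3 called in each direction per comparison whose libraries did not overlap, the 3 most expressed, those in the lists, and the lowest folds; genes outside this rule were named after their values were seen.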

Additional observations from a re-analysis of the deposited data

How the results depend on the processing

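Members called from E33 to E40 were 123 in the main setting, 106 with the replicate block, 74 with only the stages compared, 14 with values as deposited (12 of them also in the main setting) and 5 with values as deposited and E40 replicate 2 left out. Of all genes, 19.2% were called with the replicate block and 13.2% with only the stages compared, against 21.5% and 15.0% of members. With values as deposited 4.87% of all genes were called, against 2.84% of members. With E40 replicate 2 also left out it was 2.47% against 1.01%. Leaving out 1 library at a time gave 68 to 150 members. From E40 to E50 the count was 6. It was 3 after dropping the 2 most abundant genes and rescaling TPM and 3 with the replicate block. Of all genes, 0.787% were called with TPM rescaled and 0.885% with the replicate block, against 0.609% of members in each. The members' count was 0 with only the stages compared, 0 with values as deposited and 0 with values as deposited and E40 replicate 2 left out, where 41, 3 and 229 members had an unadjusted limma p under 0.05. In the same 3 settings, 1312, 367 and 5265 of the 13334 genes tested had such a p-value. In the last of them the median log2 change of all genes was -0.79. The count of members called was 1 (0.203%) with E40 replicate 2 and E50 replicate 3 left out together, where 0.285% of all genes were called. Leaving out 1 library gave 1 to 15 members. For E40 against the mean of E33 and E50 the count was 17. It was 7 with TPM rescaled, 4 with only the stages compared, 13 with the replicate block, and 0 with values as deposited, with or without E40 replicate 2 (9 and 27 at an unadjusted limma p under 0.05). Of all genes, 1.03% were called with TPM rescaled, 0.450% with only the stages compared and 1.69% with the replicate block. With values as deposited, 485 of all genes had an unadjusted limma p under 0.05, and 944 once E40 replicate 2 was left out. Leaving out 1 library gave 5 to 42 members. The settings that leave out 2 libraries, or 1 library with values as deposited, were chosen after seeing the data. The rule found 322 members when only peaks at or above their list's median fold counted. The share of member peaks near the stop codon was 16.9% within 100 bases and 39.8% within 400, against 8.90% and 26.7% for genes with a peak in all 6 lists. PDE7A (-0.13) and HIPK3 (-0.23) changed sign from E33 to E40 with values as deposited. From E40 to E50, MYH14 (-0.0234) and SLN (-0.34) did so with values as deposited and E40 replicate 2 left out. The cause was not tested. The difference in median expression at E40 stayed between -0.69 and -0.64 in the alternatives run. With 1 list per stage, no peak result has a replicate.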
